A study of Mus musculus with 18 samples.

Results

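Raising oxidized low-density lipoprotein (oxLDL) from 10 to 60 µg/ml was examined in bone marrow-derived macrophages (BMDM) of Apoe-/-/Treml4-/- double-knockout mice (DKO). Every library with these labels was taken, 3 with oxLDL 10 and 3 with oxLDL 60, which were 6 of the 18 libraries of the series. The step from oxLDL 10 to oxLDL 60 was tested for 12838 of the 18668 gene symbols listed, those with at least 0.1 RPKM in at least 3 of the 18 libraries. The other 12 libraries were untreated DKO cells and Apoe-/- cells given no oxLDL, oxLDL 10 or oxLDL 60, with 3 replicates in each group. DKO and Apoe-/- mice were of C57BL6 background, and both carried the Apoe deletion, so that no group had normal Apoe. The DKO line came from a cross of the single mutants that was then bred among itself, and ages were not given for these cultures. Marrow cells were grown with M-CSF for 7 days by the design text. That text gives 16 hours with oxLDL or vehicle, whereas the study's methods give a longer time, and a treatment label that names LPS was not resolved.

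OxLDL is a lipid particle altered by oxidation. Macrophages take it up through scavenger receptors, pass its cholesterol through lysosomes, store it as esters in lipid droplets and export it through transporters that the sterol-sensing LXR receptors induce. Free sterol also shuts down SREBP2, which drives cholesterol synthesis and LDL uptake. Oxidized lipids activate NRF2, which induces genes for glutathione and for handling peroxides and heme, and they can engage the integrated stress response through ATF4. Untreated macrophages hold a low tonic level of interferon-stimulated genes, and sterols acting on LXR are known to restrain inflammatory genes.

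Levels below are RPKM (reads per kilobase of gene, scaled to the read total of the library), given as mean ± SD with n = 3. Changes are differences of log2(RPKM + 0.1), oxLDL 60 minus oxLDL 10 unless stated, with the standard error (SE) and the Benjamini-Hochberg adjusted p from limma. A gene was called at an adjusted p under 0.05 and a fold change of at least 1.4, and only called genes are said to have risen or fallen. Where another setting ended the call of a named gene it is given beside it. Such settings were a pseudocount of 1 or 0.01, no filter on low levels, and rescaling of each library by its median ratio to the others. They also included a fit of the compared groups alone, robust variances, and leaving out single libraries or the Xist-positive ones described next. The 6 libraries held 39.8 to 50.9 M reads (mega), recovered from the table, and 12123 to 12314 genes of at least 0.1 RPKM. Treml4, the deleted receptor, was listed at 0 in all 6 libraries. Apoe, deleted in both genotypes, kept 0.674 to 1.39 RPKM. In replicate 3 of both groups Xist was at 12.8 and 14.3 RPKM while Y-linked genes were at or near 0. In replicates 1 and 2 Xist was below 0.04 RPKM and Ddx3y was at 13.8 to 18.7 RPKM.

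The step to oxLDL 60 changed 726 genes (5.66% of those tested), of which 246 rose (1.92%) and 480 fell (3.74%). At least a 2-fold change was reached by 188 of them, 66 higher and 122 lower. The median change over all genes was -0.08, and after median ratio rescaling 361 genes rose and 359 fell. The excess of lower over higher calls depended on that scaling. Among the 726 called genes 714 had no overlap between the 3 libraries of either amount, against 33.7% of all genes tested. The calls were made on these same libraries, so this separation follows largely from the call rule and is no separate support for it. Of the calls, 278 concerned genes with a mean of at least 10 RPKM, 98 higher and 180 lower.

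**Figure D1:**
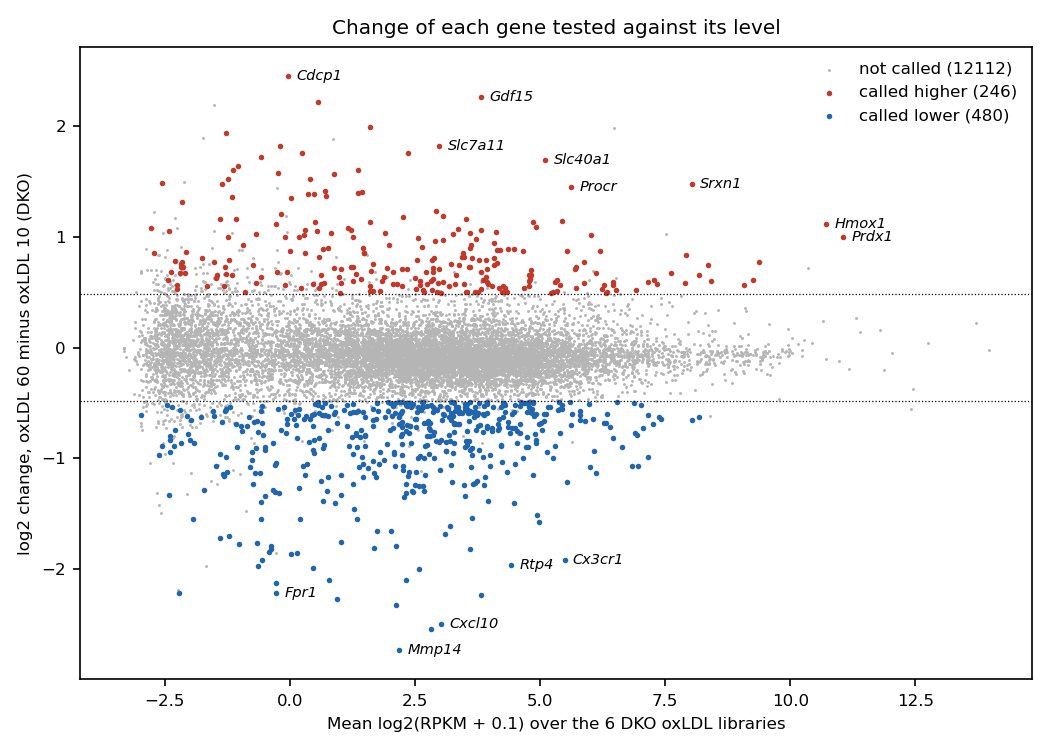
Each point is 1 of the 12838 genes tested, with its mean level over the 6 libraries (log2 of RPKM + 0.1, horizontal) and its change from oxLDL 10 to oxLDL 60 in DKO cells (log2, vertical). Dotted lines mark the 1.4-fold limit, red points are the 246 genes that rose and blue points the 480 that fell. Called genes lie at low and at high levels, Hmox1 and Prdx1 being the most abundant of them.

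Sequences just upstream of the start are shown first for called genes that hold a short motif there. They are members of the interferon, NRF2 and integrated stress response lists, except Cxcl10, which is on the chemokine list. The interferon-stimulated response element, bound by STAT and IRF factors, was searched as 2 copies of GAAA set 2 bases apart. The antioxidant response element of NRF2 was searched as TGACNNNGC, and the composite C/EBP-ATF site of ATF4 as TGATGNAA. Both strands of the RefSeq windows of GRCm38.p6 were read from 250 bases before to 50 after each start, and each gene or window was scored as holding the motif or not. The stretches below are 5′ to 3′ along the gene, end upstream of the start, and carry the match in capitals.
Ifit1 (chr19:34640779-34640838, + strand): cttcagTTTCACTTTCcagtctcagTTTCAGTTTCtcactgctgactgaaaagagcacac
Isg15 (chr4:156200850-156200909, - strand): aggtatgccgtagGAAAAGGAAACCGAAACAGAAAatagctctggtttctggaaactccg
Cxcl10 (chr5:92349068-92349127, - strand): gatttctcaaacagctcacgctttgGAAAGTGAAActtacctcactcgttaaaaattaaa
Rsad2 (chr12:26456538-26456597, - strand): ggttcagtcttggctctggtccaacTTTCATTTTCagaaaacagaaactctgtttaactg
Gsta3 (chr1:21240439-21240497, + strand): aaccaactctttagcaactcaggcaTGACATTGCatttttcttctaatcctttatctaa
Prdx1 (chr4:116685441-116685499, + strand): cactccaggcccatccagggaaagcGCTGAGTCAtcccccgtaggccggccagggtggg
Txnrd1 (chr10:82859089-82859147, + strand): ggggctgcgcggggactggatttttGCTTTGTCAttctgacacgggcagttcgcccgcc
Chac1 (chr2:119351024-119351081, + strand): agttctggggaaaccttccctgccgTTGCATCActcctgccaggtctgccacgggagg
Atf3 (chr1:191183411-191183468, - strand): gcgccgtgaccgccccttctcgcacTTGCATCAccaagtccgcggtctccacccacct
Ifit1, Isg15, Cxcl10 and Rsad2 fell, and Gsta3, Prdx1, Txnrd1, Chac1 and Atf3 rose, as described below. Ifit1 carried 2 and Isg15 carried 3 matches in these stretches, those of Isg15 overlapping.

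Windows were found for 25 of the 35 interferon-stimulated genes tested, and 15 of these (60%) held the interferon-stimulated response element, against 3.95% of the 10153 tested genes with a window and 3.44% of all 32851 windows. Of the called genes with a window, it was held by 71 of the 383 that fell (18.5%) and by 6 of the 201 that rose (2.99%). TGACNNNGC was held by 11 of 25 NRF2 genes with a window (44%), against 16.9% of tested genes and 12.4% of all windows, and by 22.9% of the genes that rose and 14.4% of those that fell. TGATGNAA was held by 6 of 23 integrated stress response genes (26.1%), against 2.85% of tested genes and 3.97% of windows, and by 6.97% of the genes that rose and 4.96% of those that fell. For the other lists searched, the share of tested genes is given beside that of the list. The sterol element TCACNCCAC was held by 1 of 15 cholesterol synthesis genes (6.67%, against 1.39%) and the lysosomal element TCACGTGA by 5 of 24 lysosome genes (20.8%, against 2.21%). The heat shock element (GAA, TTC and GAA, each 2 bases apart) was held by 4 of 13 heat shock genes (30.8%, against 0.601%) and the metal response element by 2 of 7 metallothionein and zinc genes (28.6%, against 1.06%). These shares are descriptions of letters in short windows and were not tested.

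All 35 interferon-stimulated genes tested fell, with a median change of -1.16 against -0.08 over all genes. Over all genes tested 1.92% rose and 3.74% fell, and these shares stand beside every list count of this step given below. Ifit1, whose product binds viral RNA that lacks the host cap, was at 18.0, 13.9 and 19.5 RPKM at oxLDL 10 against 2.36, 1.93 and 4.95 RPKM at oxLDL 60. The groups did not overlap, and Ifit1 fell 5.55-fold in mean level (log2 change -2.54, SE 0.29, adjusted p = 1.9e-05). Its relatives Ifit3 (-2.23) and Ifit3b (-2.27) fell by similar amounts, but they are near copies of each other whose reads can be shared between them. Cmpk2, a mitochondrial nucleotide kinase, was at 12.8, 10.8 and 12.2 RPKM and then at 2.68, 2.40 and 3.82 RPKM. It fell by 2.00 on the log2 scale (SE 0.19, adjusted p = 4.5e-06). The receptor chaperone Rtp4 went from 42.3 ± 1.59 to 11.0 ± 2.36 RPKM, and all 3 libraries with oxLDL 60 lay under all 3 with oxLDL 10. Ifi205, a DNA-binding protein of the PYHIN family, went from 3.59 ± 1.30 to 0.738 ± 0.175 RPKM.

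Among factors that drive these genes, those named next fell by less than the median of the list. Stat2 (-0.93, SE 0.13) and Irf9 (-0.72, SE 0.08), parts of the complex that binds the response element, fell, as did Irf7 (-0.86, SE 0.14), which amplifies type I interferon. Among effectors, the ubiquitin-like modifier Isg15 went from 21.1 ± 1.74 to 7.29 ± 1.37 RPKM and its protease Usp18 from 22.9 ± 2.57 to 6.56 ± 2.09 RPKM. Rsad2, the antiviral enzyme viperin, went from 15.9 ± 1.79 to 5.20 ± 1.10 RPKM, and the GTPase Mx1 from 5.81 ± 0.375 to 1.79 ± 0.115 RPKM. The smallest falls were those of Oas1a (-0.51, SE 0.09) and of the tethering protein Bst2 (-0.52, SE 0.08). Both lost the 1.4-fold limit after median ratio rescaling, at -0.42 and -0.44, and Oas1a also without oxLDL 10 replicate 1 (-0.46) or replicate 2 (-0.48) or without oxLDL 60 replicate 3 (-0.46). Between untreated DKO cells and oxLDL 10, 30 of the 35 fell and the median was -0.76. That step called 290 of all genes (2.26%), 0.569% higher and 1.69% lower.

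Of 30 NRF2 antioxidant genes tested 19 rose and none fell, with a median change of 0.65. Srxn1, sulfiredoxin, which repairs overoxidized peroxiredoxins, was at 169, 169 and 135 RPKM at oxLDL 10 against 477, 445 and 388 RPKM at oxLDL 60. It rose 2.77-fold in mean level (log2 change 1.47, SE 0.11, adjusted p = 3.2e-07), with no overlap of the groups. Slc7a11, the cystine importer that feeds glutathione synthesis, was at 4.51, 4.39 and 3.53 RPKM at oxLDL 10 against 16.3, 16.8 and 11.8 RPKM at oxLDL 60 (log2 change 1.82, SE 0.18, adjusted p = 5.3e-06). In untreated DKO cells Slc7a11 was at 4.08 ± 0.117 RPKM, so its level was the same as with oxLDL 10 within the spread of replicates. Gclc and Gclm, the catalytic and modifier subunits of glutamate-cysteine ligase, rose by 1.14 (SE 0.08) and 0.83 (SE 0.07). Gsr, which recycles glutathione, went from 54.7 ± 5.23 to 100.1 ± 7.19 RPKM.

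Enzymes that use glutathione or thioredoxin, or that handle quinones and peroxide, were among the others that rose. Gsta3, a glutathione transferase, was at 2.03, 1.78 and 0.794 RPKM and then at 6.78, 6.47 and 4.91 RPKM, a change of 1.99 (SE 0.32, adjusted p = 3.7e-04), and replicate 3 was the lowest at both amounts. The rare Gsta4 went from 0.151 ± 0.0274 to 0.655 ± 0.291 RPKM. Prdx1, a peroxiredoxin, rose from a high level, at 1522, 1666 and 1331 RPKM before and 3126, 3136 and 2778 RPKM after (log2 change 1.00, SE 0.10, adjusted p = 7.2e-06). The quinone reductase Nqo1 went from 20.7 ± 2.01 to 44.2 ± 6.00 RPKM, the carbonyl reductase Cbr3 from 19.4 ± 1.52 to 42.7 ± 1.12 RPKM and catalase (Cat) from 155 ± 13.4 to 247 ± 14.4 RPKM. Osgin1 reached 19.6, 9.33 and 13.7 RPKM with oxLDL 60, from 6.52 to 6.77 RPKM. The autophagy receptor Sqstm1 (0.77, SE 0.14) and the NADPH-forming enzymes Me1 (0.63, SE 0.09) and Taldo1 (0.56, SE 0.07) rose less, and the call of Txnrd1, thioredoxin reductase (0.58, SE 0.11), ended at the fold limit without oxLDL 10 replicate 3 (0.47). Nfe2l2, which encodes NRF2 itself, was at 49.5 ± 1.61 and 49.9 ± 1.64 RPKM (log2 change 0.01, 95% interval -0.21 to 0.24).

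**Figure D2:**
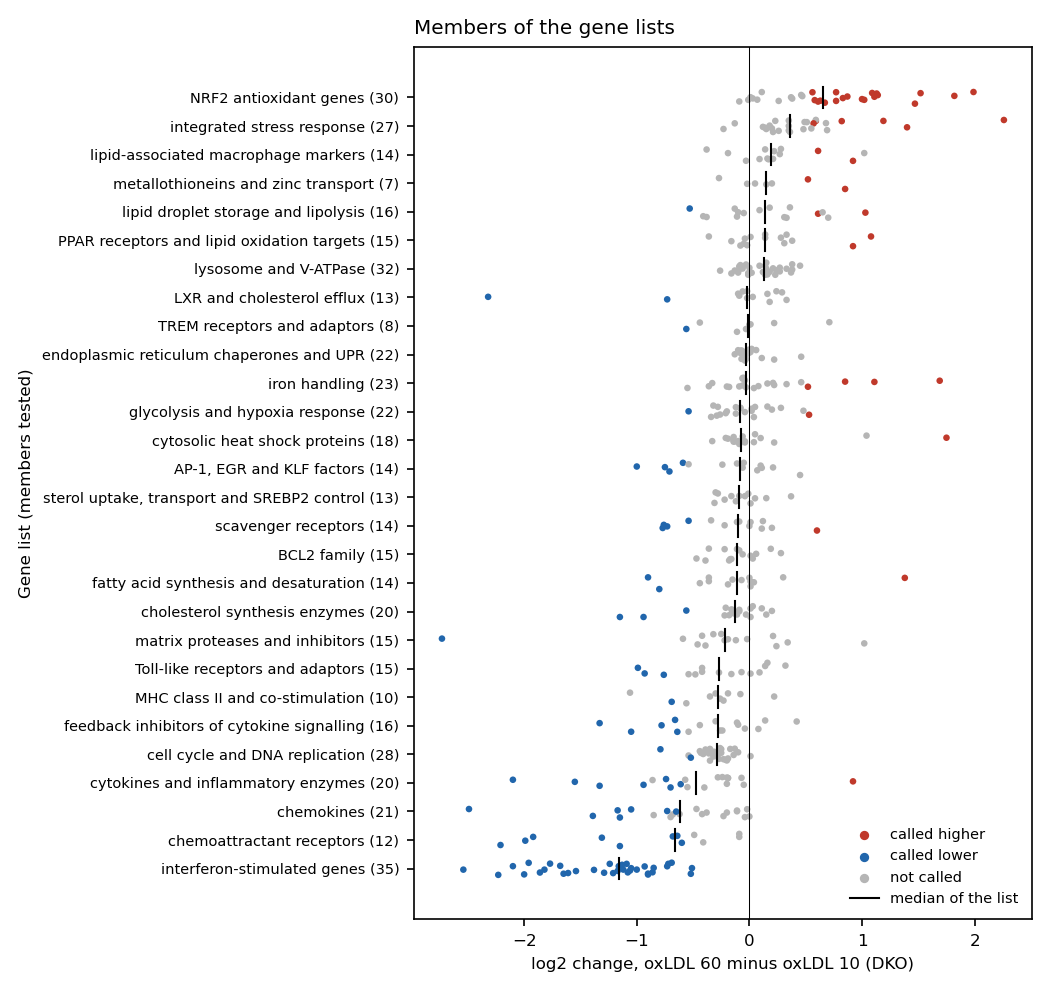
Each point is a tested member of a gene list (rows, with the number tested), placed by its log2 change from oxLDL 10 to oxLDL 60 in DKO cells, red if it rose, blue if it fell and grey if not called, with a black bar at the list's median. All 35 interferon-stimulated genes lie left of 0 with a median of -1.16, and the NRF2 genes lie furthest right with a median of 0.65. The endoplasmic reticulum, BCL2 family, lysosome and sterol control lists hold no called member.

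Iron and heme genes included some of the largest increases. Slc40a1, ferroportin, which exports iron from the cell, was at 19.6, 23.5 and 15.0 RPKM at oxLDL 10 against 64.1, 67.8 and 54.1 RPKM at oxLDL 60. Its mean level rose 3.20-fold (log2 change 1.69, SE 0.15, adjusted p = 2.3e-06). Untreated DKO cells had 7.77 ± 0.751 RPKM of Slc40a1, and the step from there to oxLDL 10 was 1.29. Hmox1, heme oxygenase, was at 1259, 1149 and 1031 RPKM and then at 2931, 2351 and 2160.2 RPKM (log2 change 1.11, SE 0.15, adjusted p = 7.9e-05). Spic, the heme-induced factor of iron-recycling macrophages, went from 2.01 ± 0.546 to 3.65 ± 0.337 RPKM, and the heme transporter Slc48a1 from 101 ± 5.48 to 145 ± 10.1 RPKM. These 4 of 23 iron genes rose and none fell, with a median of -0.03. Slc48a1 missed the fold limit without oxLDL 10 replicate 2 or oxLDL 60 replicate 1 (0.48 each). Ferritin light chain (Ftl1) was at 12537 ± 607 and 14596 ± 719 RPKM (log2 change 0.22, adjusted p = 0.256), heavy chain (Fth1) at 3340.0 ± 34.6 and 3757 ± 387 RPKM, and the transferrin receptor Tfrc at 28.9 ± 4.93 and 25.2 ± 4.81 RPKM. A fit with the replicate number as a block, which called 2.54% of genes higher and 4.46% lower, also called Lcn2 of the iron list lower (-0.55, adjusted p = 6.4e-04). Of 7 metallothionein and zinc genes the zinc importer Slc39a10 (0.85, SE 0.07) and the exporter Slc30a1 (0.52, SE 0.12) rose, the latter not without oxLDL 60 replicate 1 (0.44) or replicate 2 (0.45) or with a pseudocount of 1 (0.46).

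Of 27 genes of the integrated stress response 6 rose and none fell, with a median of 0.36 and 25 values above 0. Gdf15, a stress-induced hormone, was at 9.86, 9.45 and 2.77 RPKM at oxLDL 10 against 38.9, 41.1 and 18.4 RPKM at oxLDL 60. Replicate 3 was lowest at both amounts, the groups did not overlap, and Gdf15 rose 4.46-fold in mean level (log2 change 2.26, SE 0.44, adjusted p = 0.00200). Chac1, which degrades glutathione, was at 2.06, 1.67 and 1.11 RPKM and then at 4.44, 4.96 and 3.59 RPKM, a 2.68-fold rise in mean level (adjusted p = 0.00490). The factors Atf4 (0.59, SE 0.08) and Atf3 (0.57, SE 0.13) rose, as did Ppp1r15a (0.82, SE 0.14), which restores translation. Trib3, a pseudokinase induced by ATF4, rose by 1.19 (SE 0.30, adjusted p = 0.0127), but not without oxLDL 10 replicate 3 (adjusted p = 0.0617), oxLDL 60 replicate 1 (0.0555) or oxLDL 60 replicate 2 (0.0530). Without oxLDL 10 replicate 3 the change of Atf3 was under the fold limit (0.48). Under the block 12 of the 27 rose. Those added were Asns, asparagine synthetase (0.69, blocked adjusted p = 1.1e-05), Atf5, Ddit3, Ddit4, Phgdh and Mthfd2. After median ratio rescaling 11 of the 27 were called higher, Asns, Atf5, Ddit3 and Mthfd2 among them. Without oxLDL 60 replicate 3 the count was also 11, and without both libraries of replicate 3, together with the other Xist-positive ones, it was 10.

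Other arms of the proteotoxic response gave few calls, near the shares over all genes tested (1.92% higher and 3.74% lower). Their difference from the integrated stress response was not tested. None of 22 endoplasmic reticulum chaperones and unfolded protein response genes was called, with a median of -0.03. Herpud1, which takes part in degradation from the endoplasmic reticulum, came nearest, with 10.1 ± 0.263 and 14.0 ± 1.18 RPKM (log2 change 0.46, adjusted p = 9.2e-04), under the fold limit. It passed that limit after rescaling (0.55) and without oxLDL 10 replicate 3 (0.49), oxLDL 60 replicate 1 (0.50) or oxLDL 60 replicate 2 (0.50). Of 18 cytosolic heat shock genes only the inducible Hspa1a was called higher (1.75, SE 0.54, adjusted p = 0.0366), at 0.554, 0.300 and 0.935 RPKM and then at 3.54, 3.15 and 0.768 RPKM. Replicate 3 with oxLDL 60 lay below replicate 3 with oxLDL 10, so the groups overlapped, and the call was lost without any of replicates 1 or 2 (adjusted p 0.0906 to 0.151). It was lost too with no filter (0.0827), with only the compared groups fitted (0.0912) and with robust variances (0.0716). Hspa1b, a near copy whose reads can be shared with Hspa1a, was at 0.451, 0.348 and 1.11 RPKM and then at 2.22, 1.67 and 0.533 RPKM (adjusted p = 0.182). Without oxLDL 60 replicate 3 Hspa1b was called higher (1.60, adjusted p = 0.0414), and without the Xist-positive libraries likewise (2.03, adjusted p = 7.3e-06).

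**Figure D3:**
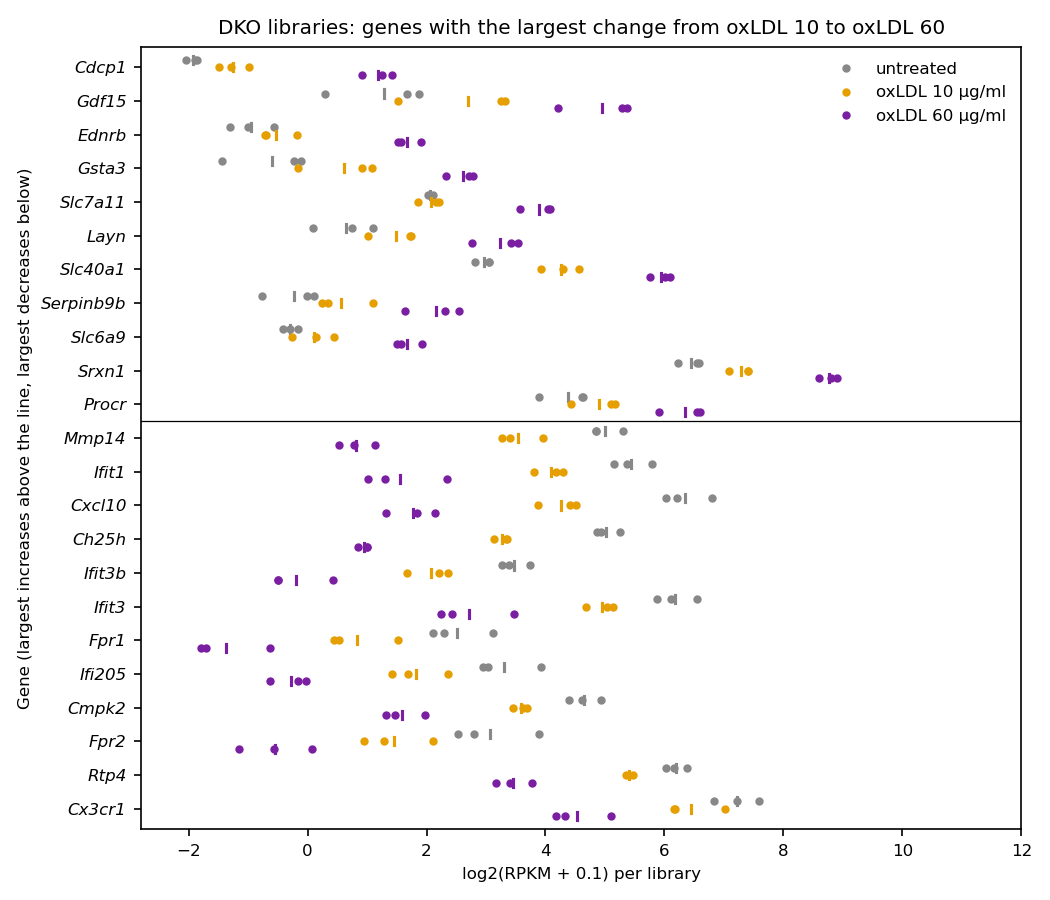
Among the genes with the largest changes, 11 that rose and 12 that fell from oxLDL 10 to oxLDL 60 in DKO cells, with the log2(RPKM + 0.1) of each library as a point and the group mean as a bar. Untreated libraries are grey, oxLDL 10 orange and oxLDL 60 purple. The rule that chose the 23 genes required separate orange and purple points, and it fixed the direction from oxLDL 10 to oxLDL 60. The group means of all 12 decreases also go down from untreated to oxLDL 10, which the rule did not require.

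Several of the largest increases belonged to none of the lists. Cdcp1, a surface protein phosphorylated by SRC kinases, was at 0.404, 0.309 and 0.255 RPKM at oxLDL 10 against 2.56, 2.27 and 1.79 RPKM at oxLDL 60. It had the largest increase among called genes with no overlap and a mean of at least 1 RPKM (log2 change 2.45, SE 0.20, adjusted p = 1.4e-06). Ednrb, an endothelin receptor, went from 0.603 ± 0.159 to 3.11 ± 0.488 RPKM, and the hyaluronan-binding Layn from 2.77 ± 0.743 to 9.61 ± 2.59 RPKM. The glycine transporter Slc6a9 (1.56, SE 0.17) and the serpin Serpinb9b (1.60, SE 0.28) rose to 3.11 ± 0.516 and 4.54 ± 1.39 RPKM. Procr, the protein C receptor, was the most abundant of these, at 35.7, 34.2 and 21.4 RPKM and then at 96.3, 93.3 and 60.0 RPKM (log2 change 1.45, SE 0.25, adjusted p = 6.4e-04).

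Under the same limits the largest decrease was that of Mmp14, a membrane-bound matrix protease that activates other proteases. Mmp14 was at 10.5, 9.49 and 15.5 RPKM at oxLDL 10 against 1.35, 1.62 and 2.10 RPKM at oxLDL 60. It fell 7.00-fold in mean level (log2 change -2.73, SE 0.21, adjusted p = 5.0e-07), from an untreated level of 32.3 ± 6.14 RPKM. It was the only one of 15 matrix proteases and inhibitors called. Mmp12, the macrophage elastase, was at 164, 227 and 56.0 RPKM and then at 329, 389 and 136 RPKM (1.02, adjusted p = 0.199). Replicate 3 was far under the others at both amounts, each replicate had more with oxLDL 60 than with oxLDL 10, and with the replicate number as a block Mmp12 was called higher (adjusted p = 5.2e-07), as it was without the Xist-positive libraries (0.89, adjusted p = 0.00104). The block left 2 members of this list called lower.

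Of 12 chemoattractant receptors, which guide migration, 8 fell and none rose, with a median of -0.66. Cx3cr1, the fractalkine receptor, was at 71.3, 72.4 and 129 RPKM at oxLDL 10 against 19.9, 17.9 and 34.1 RPKM at oxLDL 60 (log2 change -1.92, SE 0.24, adjusted p = 4.1e-05). Fpr1, a receptor for formylated peptides, was at 1.26, 1.34 and 2.76 RPKM and then at 0.190, 0.205 and 0.546 RPKM (log2 change -2.21, SE 0.33, adjusted p = 2.2e-04). Its relative Fpr2 fell by 1.99 on the log2 scale. Ccr2, which recruits monocytes to CCL2, went from 7.90 ± 1.99 to 3.16 ± 0.920 RPKM. The complement receptors C3ar1 (-0.68, SE 0.09) and C5ar1 (-0.60, SE 0.10) fell, the latter not without oxLDL 60 replicate 2 (-0.48). Ccr3 fell by 0.64 on the log2 scale (adjusted p = 0.0329) and lost its call without oxLDL 10 replicate 2 or 3 or oxLDL 60 replicate 1 or 3 (adjusted p 0.0868 to 0.136). Its call also ended with a pseudocount of 1 (0.0545), no filter (0.0670), rescaling (0.0675), only the compared groups (0.0572) and without the Xist-positive libraries (0.122).

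Of 21 chemokines 7 fell and none rose, with a median of -0.62. Cxcl10, an interferon-induced attractant of T cells, was at 21.1, 14.5 and 22.8 RPKM at oxLDL 10 against 3.48, 2.40 and 4.34 RPKM at oxLDL 60 (log2 change -2.49, SE 0.23, adjusted p = 3.1e-06). Ccl9 went from 329 ± 20.2 to 209.9 ± 6.00 RPKM, Cxcl16, which is also a scavenger receptor, from 173 ± 14.0 to 104 ± 5.41 RPKM, and Cx3cl1 from 1.73 ± 0.335 to 0.785 ± 0.166 RPKM. Ccl5, Cxcl1 and Ccl22 were the other members called lower. Without oxLDL 10 replicate 1 these 3 calls were lost (adjusted p = 0.0823, 0.0586 and 0.0869) and 4 chemokines remained called. Ccl5 was also lost without oxLDL 10 replicates 2 or 3 or oxLDL 60 replicates 1 or 2, Ccl22 without oxLDL 10 replicate 3 or oxLDL 60 replicates 1 or 2, and Cxcl1 without oxLDL 10 replicate 2 or oxLDL 60 replicate 3. Ccl5 and Ccl22 were both lost with a pseudocount of 1, no filter, rescaling or robust variances (adjusted p 0.0638 to 0.0827 and 0.0762 to 0.155), and Ccl22 also with only the compared groups fitted (0.102). Ccl2, the main monocyte attractant, was at 624, 662 and 179.9 RPKM and then at 341, 374 and 160.1 RPKM (-0.62, SE 0.62, adjusted p = 0.556). Without the Xist-positive libraries Ccl2 was called lower (-0.85, adjusted p = 0.0239), as it was under the block (adjusted p = 0.0474), which also called Ccl7 (-0.85, adjusted p = 0.0252) and Ccl12 (-0.70, adjusted p = 0.0217) lower.

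Among 20 cytokines and inflammatory enzymes 7 fell and 1 rose, with a median of -0.47. Tnf was at 70.1, 65.7 and 51.7 RPKM at oxLDL 10 against 41.8, 41.5 and 32.3 RPKM at oxLDL 60 (log2 change -0.70, SE 0.15, adjusted p = 0.00350). Il1b went from 1.06 ± 0.195 to 0.317 ± 0.169 RPKM (-1.55, adjusted p = 0.0101, and 0.0612 without oxLDL 60 replicate 2). Nos2, inducible nitric oxide synthase, was already low with oxLDL 10, at 0.198 ± 0.0452 RPKM, and Il27 and Il12b fell at under 1 RPKM. With oxLDL 60 both Nos2 (0.0184 RPKM) and Il12b (0.00335 RPKM) were under the level that 3 reads over 1 kb would give (0.0553 to 0.0754 RPKM), so the size of their fitted change depends on the pseudocount. The acute phase protein Saa3 went from 10.8 ± 3.72 to 3.44 ± 3.77 RPKM with overlapping groups, since replicate 3 stayed at 7.78 RPKM (adjusted p = 0.0143). The anti-inflammatory Il10 fell too (-0.74, adjusted p = 0.0254). Osm, oncostatin M, was the member that rose, from 3.56, 3.38 and 1.74 RPKM to 6.33, 6.12 and 3.91 RPKM (0.92, SE 0.26, adjusted p = 0.0226). Leaving out oxLDL 10 replicate 1 left 4 lower calls and oxLDL 60 replicate 2 left 3. Saa3 lost its call without oxLDL 10 replicate 1 or oxLDL 60 replicates 1 or 2 (adjusted p 0.0617 to 0.0814), Il10 without oxLDL 10 replicates 1 or 2 or oxLDL 60 replicates 2 or 3 (0.0508 to 0.0955), Il12b without the same libraries (0.0706 to 0.0987), and Osm without oxLDL 10 replicate 3 or oxLDL 60 replicates 1 or 2 (0.0872 to 0.106). With a pseudocount of 1 only 2 members of the list were called lower, since Il1b (0.0738), Nos2 (0.0696) and Il12b (0.222) missed the adjusted p and Il10 (-0.48) and Il27 (-0.38) the fold limit. With only the compared groups fitted Saa3 (0.0891), Il12b (0.0692) and Osm (0.0819) were lost, with no filter Il10 (0.0560) and Osm (0.0529), and without the Xist-positive libraries Il10 (0.107) and Il12b (0.134). The block called 3 more members lower, the growth factors Csf1 (-0.57, adjusted p = 0.0156) and Csf2 (-0.86, adjusted p = 0.00755) and Il15 (-0.55, adjusted p = 0.00124).

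Inhibitors that are themselves induced by cytokines and NF-κB also fell, in 5 of 16 tested. Socs3, which blocks STAT3 signalling, was at 3.39, 2.68 and 3.35 RPKM and then at 1.31, 1.16 and 1.09 RPKM (log2 change -1.33, SE 0.20, adjusted p = 2.3e-04). Untreated cells had 16.5 ± 3.27 RPKM of Socs3. Nfkbiz (-1.05, SE 0.12), Nfkbia (-0.64, SE 0.09), Tnip3 (-0.78, SE 0.09) and Irak3 (-0.66, SE 0.12) were the others. Among 14 immediate early and KLF factors 4 fell. Fos was at 54.6, 49.3 and 58.2 RPKM and then at 28.0, 25.9 and 26.8 RPKM, a 2.01-fold fall in mean level (adjusted p = 2.0e-06), and Ier2 fell from 6.35 ± 0.560 to 3.74 ± 0.228 RPKM. Junb (-0.59, adjusted p = 0.0113) was lost without oxLDL 10 replicate 3 (0.0566) and after rescaling (0.0526), and was under the fold limit without the Xist-positive libraries (-0.44). Klf2 (-0.71, adjusted p = 0.0346) was lost without any of the 6 libraries (0.0550 to 0.123), with no filter (0.0736) and after rescaling (0.0640), which left 2 of these 14 called lower.

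Of 15 Toll-like receptors and adaptors Tlr2, Cd14 and Tlr8 fell. Tlr2, which senses bacterial lipoproteins, was at 92.5, 93.1 and 93.0 RPKM at oxLDL 10 against 51.6, 47.0 and 47.5 RPKM at oxLDL 60 (log2 change -0.93, SE 0.09, adjusted p = 5.3e-06). Cd14, a co-receptor for lipopolysaccharide, went from 203 ± 41.1 to 101 ± 9.16 RPKM without overlap (log2 change -0.99, SE 0.15, adjusted p = 2.4e-04). Tlr8 (-0.76, adjusted p = 0.0131) was lost without oxLDL 60 replicate 1 (0.0597) or replicate 2 (0.0522), and Tlr1 (-0.54) was added with the replicate number as a block (adjusted p = 4.7e-04). Of 10 genes of MHC class II and co-stimulation Cd40 fell, from 12.7 ± 1.77 to 7.83 ± 0.894 RPKM. Under the block Ciita, the class II transactivator (-1.06, adjusted p = 1.7e-04), and H2-Ab1 (-0.56, adjusted p = 4.0e-04) joined it.

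Scavenger receptors moved in both directions. Cd36, the main receptor for oxLDL uptake in macrophages, was at 277, 338 and 227 RPKM at oxLDL 10 against 438, 469.9 and 363 RPKM at oxLDL 60. Its mean rose 1.51-fold (log2 change 0.60, SE 0.14, adjusted p = 0.00894), and without oxLDL 10 replicate 3 the change was under the fold limit (0.46). Msr1, scavenger receptor A, was at 139, 159 and 167 RPKM and then at 85.5, 93.5 and 93.9 RPKM (log2 change -0.77, SE 0.09, adjusted p = 3.5e-05). Cxcl16, Olr1 and Scarf1 were the other members of 14 that fell. Olr1 (-0.76, adjusted p = 0.0148) was lost without oxLDL 10 replicate 1 (0.0504) or oxLDL 60 replicate 3 (0.0744) and was under the fold limit with a pseudocount of 1 (-0.31). Scarf1 (-0.54, adjusted p = 0.0449) stayed called without oxLDL 10 replicate 3 but not without any of the other 5 libraries (0.0579 to 0.189). Its call also ended with no filter (0.0894), rescaling (0.0868), only the compared groups (0.0559) and robust variances (0.0539), and at the fold limit with a pseudocount of 1 (-0.48).

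Of 13 genes of LXR and efflux 4 rose and 1 fell from untreated cells to oxLDL 10 (median 0.21). Over all genes tested that step called 0.569% higher and 1.69% lower. From oxLDL 10 to oxLDL 60, 2 of the 13 fell and none rose (median -0.02). Both steps use the oxLDL 10 libraries, and their difference was not tested. Abca1, the cholesterol exporter, was at 7.36 ± 3.37 RPKM untreated, and then at 26.1, 30.2 and 29.5 RPKM at oxLDL 10 against 30.7, 32.8 and 32.4 RPKM at oxLDL 60. Its change over the last step was 0.16 (SE 0.32, adjusted p = 0.796), after 2.03 over the first. Abcg1 had 12.8 ± 4.60, 72.1 ± 2.48 and 85.1 ± 0.618 RPKM, and Mylip, an LXR-induced ubiquitin ligase, 9.94 ± 2.07, 24.0 ± 0.622 and 30.1 ± 1.75 RPKM. Lpcat3, which remodels phospholipids, changed by 0.23 and then 0.18, and the phosphodiesterase Smpdl3a by 0.21 and then 0.29, none of these called. Ch25h, which makes the oxysterol 25-hydroxycholesterol and is also induced by interferon, was at 9.98, 10.1 and 8.66 RPKM and then at 1.71, 1.89 and 1.91 RPKM, a fall of 5.21-fold (log2 change -2.32, SE 0.20, adjusted p = 2.0e-06). The LXR gene Nr1h3 fell from 21.1 ± 2.12 to 12.6 ± 0.354 RPKM (-0.73, SE 0.16, adjusted p = 0.00451).

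Of 20 cholesterol synthesis enzymes 3 fell, with a median of -0.12. Idi1, an isomerase of the early pathway, was at 5.74, 6.20 and 5.30 RPKM and then at 3.18, 3.00 and 2.66 RPKM (log2 change -0.94, SE 0.15, adjusted p = 4.3e-04). Acat2 fell by 0.56 on the log2 scale and was under the fold limit after rescaling (-0.48). Over the step from untreated cells to oxLDL 10 the list had 10 lower calls and a median of -0.50, with 1.69% of all genes called lower. None of 13 genes of sterol uptake, transport and SREBP2 control was called from oxLDL 10 to oxLDL 60.

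**Figure D4:**
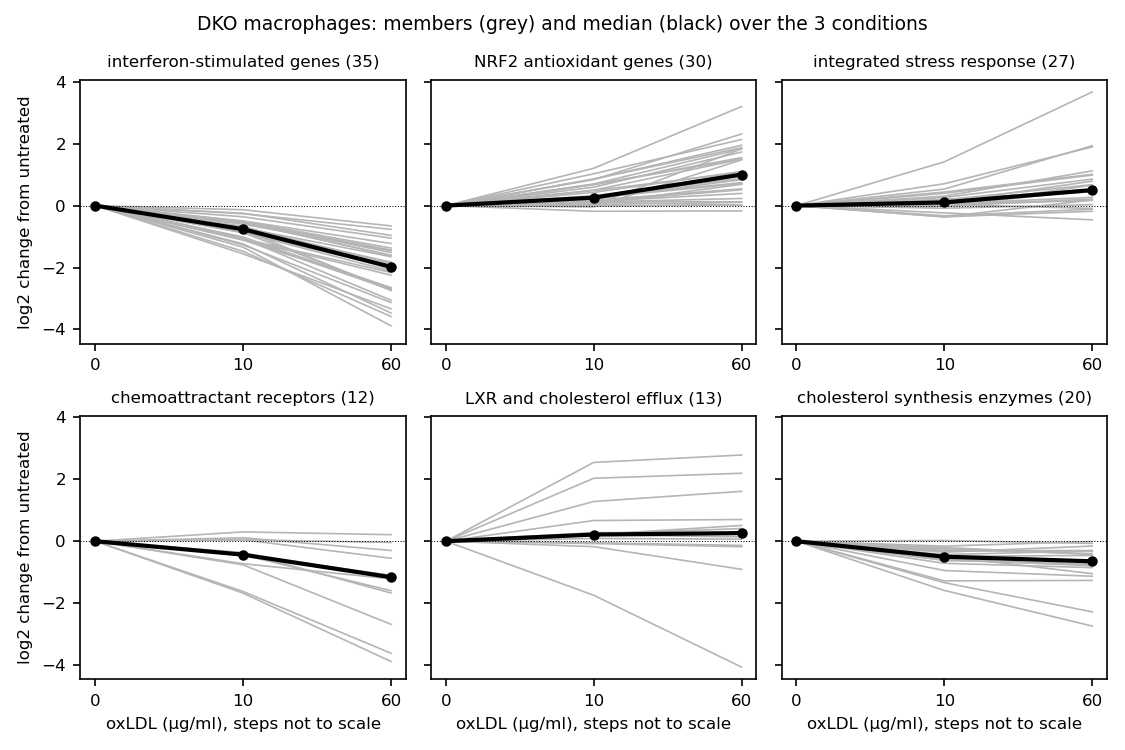
Each grey line is a member of a list and the black line the median, as the log2 change of the group mean from untreated DKO cells with oxLDL at 0, 10 and 60 µg/ml (steps not drawn to scale). Taken separately for the earlier and the later step, the medians of the members' changes are -0.76 and -1.16 for interferon-stimulated genes. For the NRF2 genes they are 0.26 and 0.65. The LXR targets Abca1, Abcg1 and Mylip go up by 1.28 to 2.55 at the earlier step and by 0.16 to 0.33 at the later.

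Of 14 genes of fatty acid synthesis and desaturation 2 fell and 1 rose (median -0.11), and of 16 genes of lipid droplets and lipolysis 2 rose and 1 fell (median 0.14). Fasn, fatty acid synthase, fell from 9.13 ± 0.907 to 5.22 ± 0.494 RPKM (-0.80, SE 0.14, adjusted p = 7.5e-04) and the elongase Elovl6 from 0.862 ± 0.0307 to 0.418 ± 0.0441 RPKM, the latter under the fold limit with a pseudocount of 1 (-0.39). Acss2, which makes acetyl-CoA from acetate, was at 0.775, 0.609 and 0.958 RPKM and then at 2.40, 1.97 and 2.14 RPKM (log2 change 1.38, SE 0.18, adjusted p = 6.8e-05). On lipid droplets the coat protein Plin2 was at 523, 564 and 415 RPKM and then at 789.9, 793 and 701 RPKM (log2 change 0.61, SE 0.12, adjusted p = 0.00191), and the lipolysis inhibitor Hilpda rose from 8.51 ± 1.47 to 17.7 ± 4.10 RPKM. The hormone-sensitive lipase Lipe fell from 4.89 ± 0.402 to 3.37 ± 0.283 RPKM, but not past the fold limit without oxLDL 10 replicate 3 or oxLDL 60 replicate 2 (-0.46 each), after rescaling (-0.44) or with a pseudocount of 1 (-0.43). Without oxLDL 60 replicate 1 there were 3 lower calls on the droplet list. In the blocked fit Gpat3, which starts triglyceride synthesis, was added to those that rose (0.65, adjusted p = 0.00355). Of 15 genes of PPAR receptors and lipid oxidation Ppard rose, from 1.45 ± 0.161 to 3.24 ± 0.782 RPKM. Fabp4, a fatty acid carrier, was at 10.7, 12.0 and 5.31 RPKM and then at 18.7, 20.2 and 12.5 RPKM (0.92, SE 0.26, adjusted p = 0.0218), and its call was lost without oxLDL 10 replicate 3 (0.0958) or oxLDL 60 replicates 1 (0.0742) or 2 (0.0927), with no filter (0.0518) or with only the compared groups fitted (0.0990). Pparg was at 8.65 ± 0.665 and 9.57 ± 0.910 RPKM (adjusted p = 0.378).

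Lysosomal genes, markers of lipid-associated macrophages and the BCL2 family gave few calls or none. Over all genes tested 1.92% were called higher and 3.74% lower. With so few calls, the counts in this paragraph are not read as results about the lists. None of 32 lysosome and V-ATPase genes was called, with a median of 0.13, and none of 15 BCL2 family genes. Lipa, the lysosomal lipase that frees cholesterol, was at 495 ± 53.0 and 619 ± 45.3 RPKM (0.33, adjusted p = 0.01), under the fold limit. Of 14 markers of lipid-associated macrophages only Plin2 and Fabp4 rose, and Trem2 was at 436 ± 27.1 and 506 ± 3.57 RPKM (0.22, adjusted p = 0.116). Of 8 TREM receptors and adaptors Trem3 fell, from 1.23 ± 0.304 to 0.802 ± 0.213 RPKM (adjusted p = 0.0483), a call lost without oxLDL 10 replicates 2 or 3 or oxLDL 60 replicate 2 (0.0655 to 0.231). That call also ended with a pseudocount of 1 (0.0555), no filter (0.0932), rescaling (0.115), only the compared groups (0.151) and without the Xist-positive libraries (0.134). In the blocked fit Treml1 was called higher (0.71, adjusted p = 0.0130). Of 28 cell cycle genes Ccnd1, cyclin D1, fell from 161 ± 17.0 to 92.9 ± 6.37 RPKM (-0.79, adjusted p = 0.0136, and 0.0603 without oxLDL 10 replicate 1). Ccne2 was the other (-0.52, adjusted p = 0.0382), lost without oxLDL 10 replicates 1 or 2 or oxLDL 60 replicates 1 or 3 (0.0725 to 0.161), with no filter (0.0790) and after rescaling (0.0615). The list's median was -0.29 with 27 of 28 values below 0. Without oxLDL 10 replicate 1 no cell cycle gene was called, and without oxLDL 10 replicate 3 there were 5. Of 22 glycolysis genes Hk3 rose (0.53, adjusted p = 0.00259) and Pfkl fell (-0.54, adjusted p = 0.0282). Hk3 missed the fold limit without oxLDL 10 replicate 3 (0.40) or the Xist-positive libraries (0.46), and Pfkl lost its call without oxLDL 10 replicates 1 or 3 or oxLDL 60 replicates 1 or 2 (0.0545 to 0.126), with no filter (0.0609), after rescaling (0.0993) and with only the compared groups fitted (0.0701).

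The cell type was checked with the same libraries. Macrophage markers summed to 9404 to 12541 RPKM with oxLDL 10 and to 7287 to 9359.7 RPKM with oxLDL 60, without overlap (exact two-sided permutation test, p = 0.10, the smallest that 3 against 3 allows). Most of that sum is Lyz2, lysozyme, at 6654 ± 1370.0 and 4547 ± 835 RPKM (-0.55, adjusted p = 0.0686, and 0.00131 with the replicate number as a block). Of 12 markers Fcgr1 (-0.74, SE 0.17) and Cd14 were called lower. Neutrophil markers summed to 38.2 to 80.7 and 32.7 to 59.0 RPKM (exact two-sided permutation test, p = 0.50), and none was called. T or NK cell markers summed to 0.436 to 0.453 and 0.271 to 0.310 RPKM and osteoclast markers to 5.55 to 6.47 and 4.34 to 5.30 RPKM, each without overlap (exact two-sided permutation test, p = 0.10 for both). The sums of dendritic, B, mast and erythroid markers stayed under 2.1 RPKM in all 6 libraries and those of fibroblast or endothelial markers under 10 RPKM, with overlapping groups (exact two-sided permutation test, p = 0.20 to 0.90). Cd3e and Fcer1a were at 0. The part of these sums in the results was not tested, and fewer cells of a type cannot be told apart from less RNA per cell.

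The same dose step was then set beside that in Apoe-/- cells, which have Treml4. There 829 genes were called (6.46%), 374 higher (2.91%) and 455 lower (3.54%). The 2 contrasts share no library, and across the 12838 genes their changes correlated with Pearson's r of 0.771 and Spearman's rho of 0.720, given as a description since genes are not independent. Of the 726 genes called in DKO, 716 had the same sign in Apoe-/- and 585 were called there in the same direction, which were 80.6% of the DKO calls and 70.6% of the Apoe-/- calls. Interferon-stimulated genes had medians of -1.16 in DKO and -1.13 in Apoe-/-, NRF2 genes 0.65 and 0.81, and integrated stress response genes 0.36 and 0.56, with 14 called in Apoe-/-. Over all genes the median of the difference, DKO minus Apoe-/-, was -0.08. Slc40a1 rose from 3.11, 3.15 and 3.28 RPKM to 9.14, 8.39 and 9.96 RPKM in Apoe-/- cells, a change of 1.5 against 1.69 in DKO (difference 0.20, 95% interval -0.26 to 0.65, adjusted p = 0.999).

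No gene was called for a difference of the dose step between genotypes, with 330 genes (2.57%) at an unadjusted p under 0.05. Among genes with a mean of at least 1 RPKM over these 12 libraries the smallest p was that of Treml4. In Apoe-/- cells Treml4 was at 3.27, 3.61 and 3.08 RPKM at oxLDL 10 against 8.36, 8.39 and 8.06 RPKM at oxLDL 60, and the difference of the steps was -1.29 (SE 0.22, adjusted p = 0.333). With the replicate number as a block its adjusted p was 0.0545, and with a pseudocount of 1 or with the fit restricted to the compared groups it was called. Next came Terc, the telomerase RNA (difference 0.93, SE 0.22), Rpl31-ps12, a ribosomal protein pseudogene whose reads can come from its parent gene (0.88, SE 0.21), Gemin8 (-0.57, SE 0.15) and Hexim1 (-0.43, SE 0.13), each with an adjusted p of 0.999. Terc was at 1.91 ± 0.235 and 2.51 ± 0.561 RPKM in DKO and at mean levels of 2.21 and 1.44 RPKM in Apoe-/-. In the fit without the block, the interval of Cxcl10's difference was 0.03 to 1.42 and that of Gdf15's -1.38 to 1.25. That fit leaves room for differences of that size. The width for Gdf15 includes the spread between replicate numbers, as the SE of its DKO step was 0.44 without the block and 0.12 with it. Intervals of the difference under the block are not given.

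**Figure D5:**
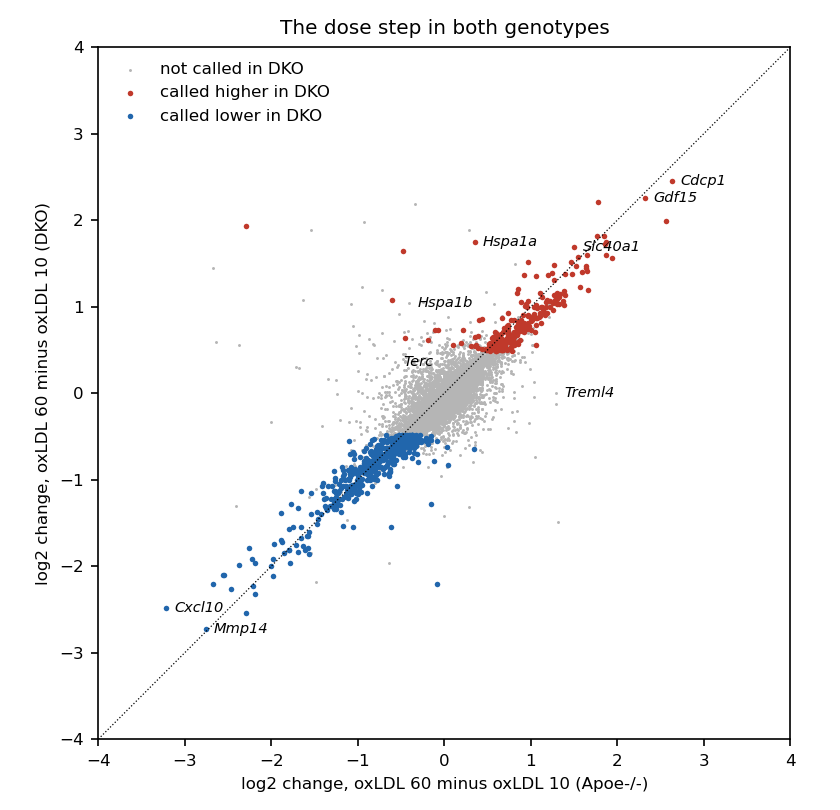
Each point is a gene tested, with its log2 change from oxLDL 10 to oxLDL 60 in Apoe-/- cells (horizontal) and in DKO cells (vertical), red if it rose and blue if it fell in DKO, and the dotted line marks equal change. Most called genes lie near the line, 716 of 726 with the same sign (r = 0.771 over all genes), and Treml4 lies at 1.29 and 0.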

How the data were processed

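RNA-seq of BMDM was deposited by the authors as RPKM for 18668 symbols in 18 libraries, and 24 symbols had been turned into dates. The submitters' processing notes name STAR and mm10. The study's methods name a workflow with Subread and limma among its tools, and its calls needed a fold change of 1.4. The labels differ on the sequencing platform. The treatment label gives LPS, while titles and design give oxLDL for 16 hours, and the methods another time.

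RPKM was analysed as log2(RPKM + 0.1) with limma 3.58.1 in R 4.3.3. Genes needed 0.1 RPKM in 3 libraries. Means of 6 groups were fitted over 18 libraries with a variance trend, and the Benjamini-Hochberg adjustment covered 12838 genes. The script was tested on simulated data. Python 3.11.15, pandas 2.3.3, numpy 2.4.6 and matplotlib 3.10.9 were used. Read depth was recovered from steps between low values, of which 77.3% of 26630 lay within 0.05 of a whole step, and gave 39.8 to 54.2 M reads (mega) per library. Floors from it reflect read counts only, whereas the 95% intervals come from the limma fit and its replicate spread.

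Named genes were the 12 largest increases and decreases among called genes with no overlap and a mean of at least 1 RPKM, list members, Treml4, Apoe, Slc40a1, Cd36, Ccl2 and Ccr2, and the 5 smallest p-values for the difference between genotypes. Members, lists and motifs were chosen with earlier results of these data known. Replicates are described as biological replicates, without an animal number. Same-numbered DKO libraries at both amounts deviated together over 10102 genes (r = 0.35 to 0.72, n = 3, against -0.57 to 0.38 for other numbers, n = 6). Replicate 3 stood apart (0.72), but replicates 1 and 2 were not told apart. For example, oxLDL 10 replicate 1 gave 0.35 with oxLDL 60 replicate 1 and 0.38 with replicate 2. The number was used as a block in an alternative fit. Other alternatives changed the pseudocount, filter, scaling, libraries fitted, variance model, fold limit and replicates. Some genes are not reported here.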

Additional observations from a re-analysis of the deposited data

How the results depend on the processing

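With no limit on the fold change 2000 genes were called (474 higher and 1526 lower), and with a limit of 2-fold 188 were (66 and 122). Leaving out 1 library of DKO at a time gave 601 to 784 calls, 174 to 305 of them higher and 415 to 479 lower. Other settings gave 498 calls with a pseudocount of 1, 738 with 0.01, 673 with no filter, 648 with a filter of 1 RPKM, 665 with only the compared groups fitted, 709 with robust variances and 778 without the Xist-positive libraries. With the replicate number as a block 899 genes were called, 326 higher and 573 lower, and all 726 calls were kept. Beyond the calls named with the results, the block changed no call of a gene named in the report. The difference between genotypes gave 1 call with a pseudocount of 1 (Treml4), 1 with the block (Mir703), 1 with only the compared groups fitted (Treml4) and 2 without the Xist-positive libraries (Hspa1b and Mir703), and 0 to 0 when any single library was left out. The cause of these shifts was not tested. Values near 0 changed sign without 1 library, with ranges of -0.20 to 0.31 for Apoe and -0.02 to 0.03 for Nfe2l2, neither called in any of these. Depth limits low genes most, since 3 reads over 1 kb correspond to 0.0553 to 0.0754 RPKM.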

Other observations

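The genes in this paragraph belong to none of the lists and were chosen after their values were seen. Gpr84, a receptor for medium-chain fatty acids, was at 56.7, 49.6 and 58.2 RPKM in DKO cells at oxLDL 10 against 18.9, 17.8 and 18.2 RPKM at oxLDL 60. It fell by 1.57 on the log2 scale (SE 0.13, adjusted p = 1.4e-06), from an untreated level of 115 ± 3.98 RPKM (n = 3). Trex1, an exonuclease that degrades cytosolic DNA, went from 51.6 ± 5.16 to 18.3 ± 3.74 RPKM, and the antiviral kinase Eif2ak2 from 18.9 ± 0.845 to 9.90 ± 0.353 RPKM. Complement C3 went from 23.1 ± 6.40 to 9.63 ± 2.20 RPKM, and the C-type lectin Clec4e from 104 ± 25.9 to 46.8 ± 6.84 RPKM. Cybb, the catalytic subunit of the phagocyte oxidase, fell by 0.90 on the log2 scale (SE 0.16, adjusted p = 8.9e-04).

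The glutathione genes of this paragraph, also outside the lists, were likewise chosen after their values were seen, and they moved in both directions. Gss, glutathione synthetase, was at 6.88, 7.24 and 6.73 RPKM at oxLDL 10 against 15.5, 13.9 and 15.0 RPKM at oxLDL 60 (log2 change 1.07, SE 0.08, adjusted p = 3.2e-07). The peroxiredoxin Prdx6 rose from 40.5 ± 4.23 to 66.4 ± 4.92 RPKM. Glrx, glutaredoxin, was at 174, 172 and 197 RPKM and then at 85.5, 82.1 and 91.0 RPKM (log2 change -1.07, SE 0.08, adjusted p = 3.2e-07).

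Mir703 was called in opposite directions in the genotypes, at levels that come to few reads per library in DKO by the recovered depths. In DKO it was at 0.196, 0.223 and 0 RPKM at oxLDL 10 against 0.693, 1.34 and 0.368 RPKM at oxLDL 60 (log2 change 1.93, SE 0.62, adjusted p = 0.0443), and in Apoe-/- cells the change was -2.29 (adjusted p = 0.0200). The DKO call was lost without oxLDL 10 replicates 1 or 3 or oxLDL 60 replicates 1 or 2 (adjusted p 0.0628 to 0.176). That call also ended with no filter (0.0933), only the compared groups (0.0578) and robust variances (0.0751). With a pseudocount of 0.01 the change was 3.18 and the call was lost as well (adjusted p = 0.147).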
